A study of Mus musculus with 52 samples.

Results

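When single mouse erythroid burst-forming units (BFU-E) had divided once, 5 of the daughter pairs expressed Mpo at a high level in both cells and 17 pairs expressed Gata1 with little Mpo. These 22 of 26 pairs were compared across all genes. The pairs were selected by their measured Mpo and Gata1, on log2(CPM + 1) per cell, where CPM scales a library's counts to its total as counts per 1e+06. Both cells of a pair had to hold at least 100000 counts. A pair was called Mpo-high when Mpo was at least 12 in both cells, and Gata1-high when Mpo was under 10 and Gata1 at least 6.5 in both cells. Of the other 4 pairs, 3 untreated pairs had a library under the minimum and 1 dexamethasone pair met neither rule. All founders came from the fetal liver of C57/Bl6J embryos on embryonic day 14.5. Cells labelled by antibodies to CD3e, CD45R, Ly-6G, CD11b, Ter119, Sca-1, CD16/32 or CD41 had been depleted with magnetic beads, and the rest were sorted with antibodies to CD117, CD71 and CD24. Single founders were cultured for 16 hours without or with 100 nM dexamethasone, a synthetic glucocorticoid, and the 2 daughters were sequenced as separate libraries of polyadenylated RNA. The 5 Mpo-high pairs were untreated pairs 9 and 10 and dexamethasone pairs 6, 7 and 10. The Gata1-high class held 8 untreated and 9 dexamethasone pairs. No genotype other than the strain is given, and the labels name no embryo or litter, so each p-value measures only how founders vary, which may be within 1 animal.

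BFU-E cells are early progenitors of red cells. Gata1 encodes the zinc finger factor that drives erythroid, megakaryocyte and mast cell genes, and Klf1 encodes a factor of the erythroid branch that binds CACCC-type elements. Mpo encodes myeloperoxidase, a heme enzyme stored in the primary granules of granulocyte and monocyte precursors together with serine proteases such as proteinase 3, cathepsin G and neutrophil elastase. The ETS factor PU.1, encoded by Spi1, drives much of the granulocyte and monocyte program, and PU.1 and GATA-1 are known to oppose each other in bipotent progenitors.

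The values that set the classes are given as a description only. In the order untreated 9, untreated 10, dexamethasone 6, dexamethasone 7 and dexamethasone 10, the Mpo level of the 2 daughters was 14.55 and 12.99, 14.03 and 13.76, 14.26 and 14.53, 12.49 and 12.17, and 12.24 and 13.84 log2(CPM + 1). The lowest Mpo-high cell thus lay at 12.17, and the highest Gata1-high cell, of dexamethasone pair 9, at 9.12. Gata1 in the 34 Gata1-high cells ranged from 6.90 in untreated pair 5 to 11.42, with a median of 8.93. In 9 of the 10 Mpo-high cells Gata1 was between 0.00 and 2.83, and in cell 2 of dexamethasone pair 10 it was 7.46. Dexamethasone pair 12 met neither rule, since its daughters held Mpo at 12.46 and 3.06. Klf1 in these daughters was 12.89 and 9.05 and Prtn3 was 3.93 and 0.00, so cell 1 was high in Mpo without the Prtn3 level of the Mpo-high cells.

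**Figure D1:**
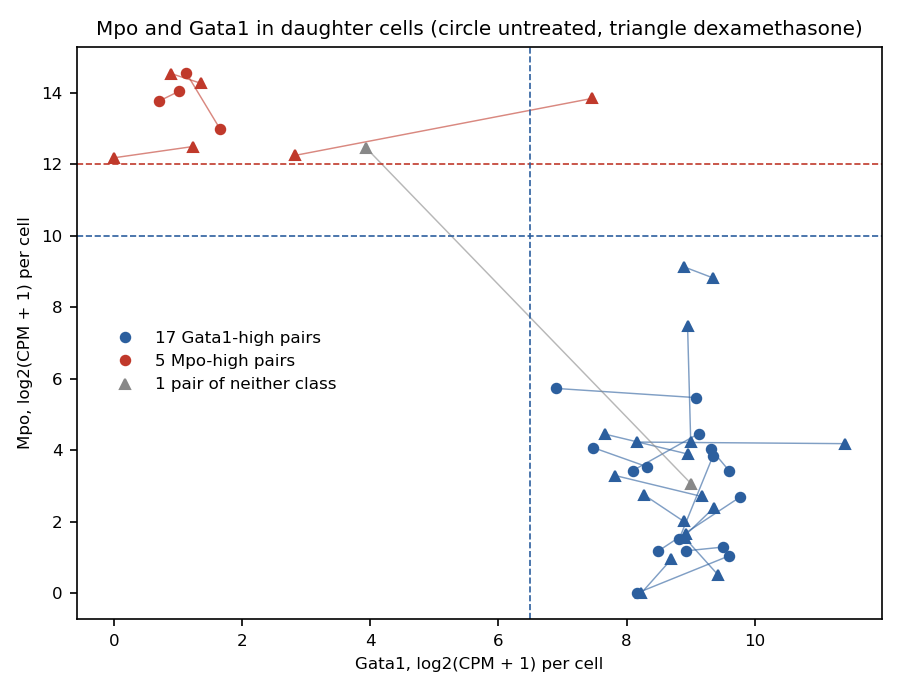
Gata1 (x axis) and Mpo (y axis) in log2(CPM + 1) for each daughter cell of the 23 pairs with 2 deep libraries, with a line joining sisters, dashed lines at the limits of the rule, circles for untreated and triangles for dexamethasone cells. The 10 Mpo-high cells lie at or above 12.17 for Mpo, and 1 of them, from dexamethasone pair 10, also lies at 7.46 for Gata1.

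Depth differed between the classes by less than the spread among pairs. The log2 of the summed counts was 22.31 ± 0.347 (SD, n = 5 pairs) in the Mpo-high and 22.31 ± 0.686 (SD, n = 17) in the Gata1-high class (two-sided exact permutation p = 0.976 over all 26334 assignments). The number of genes with a count averaged 7151 ± 946 and 7846 ± 768 per cell (SD, n = 5 and 17, exact permutation p = 0.107, 0.214 adjusted over 4 measures). The mitochondrially encoded genes took 2.30% ± 0.956 and 1.96% ± 0.472 of the counts (SD, n = 5 and 17, exact permutation p = 0.275, adjusted p = 0.367). Without dexamethasone pair 10, which had 0.691% mitochondrial counts and 8688 genes, the difference in mitochondrial share became 0.745 percentage points and that in genes detected -1079, with exact permutation p = 0.00835 and 0.0134. The 100 most abundant genes took a larger share in the Mpo-high class, 23.4% ± 1.60 against 20.9% ± 1.25 (SD, n = 5 and 17, exact permutation p = 0.00209, adjusted p = 0.00836). The Mpo-high class held 2 untreated and 3 dexamethasone pairs against 8 and 9 (two-sided Fisher's exact p = 1.00). By the plate positions in the labels, Mpo-high pairs sat in columns 4, 5 and 7.

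The class comparison asked which transcripts go with Mpo or with Gata1 in founders of 1 sorted population. Of 9143 genes tested besides Mpo and Gata1, 169 were higher in the Mpo-high pairs, 1.85% of those tested, and 127 were higher in the Gata1-high pairs, 1.39%, in edgeR's quasi-likelihood test with treatment as covariate and Benjamini-Hochberg adjusted p under 0.05. The shares of 1.85% and 1.39% stand beside each list's count of calls given below. The median log2 fold change of all genes was -0.035. The levels of 64 tested genes, 0.7%, were higher in all 5 Mpo-high pairs than in any Gata1-high pair, and those of 22 genes, 0.241%, were the reverse. Because the pairs were selected on Mpo and Gata1, genes whose levels follow either one had to differ, and an adjusted p states only how large a difference was against the spread among pairs. The 169 and 127 calls became 79 and 212 in plate columns 1 to 4 alone and 11 and 2 in columns 5 to 7 alone, where 2 Mpo-high pairs met 12 Gata1-high pairs and 3 met 5.

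Genes of the primary granules, which hold Mpo itself, come first. The expression filter asked in effect for reads in 5 pairs, so a gene near 0 in the Gata1-high pairs was tested only where it was present in the Mpo-high pairs. The direction of such genes was therefore set by the filter, and their counts and adjusted p values are a description. This holds here, in the other myeloid and leukocyte lists and for other such genes named below, among them Fcgr3, Napsa, Traf3ip3, Trf and Cd79b. The same holds in reverse for genes near 0 in all 5 Mpo-high pairs, which reached the test only through Gata1-high pairs. Among those named below are Mafk, Slc14a1, Ermap, Add2, Sptb, Rhd, Tfr2, Slc40a1, Pklr, Hemgn, St3gal6, Samd14, Bdh1, Mllt3 and Klf9. Of 14 listed primary granule genes besides Mpo, 6 were tested. In the Mpo-high class 5 of these were called higher and 0 lower, and the median log2 fold change was 9.11. Prtn3, which encodes proteinase 3 (chromosome 10 from 79874476 to 79883174, plus strand), had 2398, 1421, 1292, 1294 and 1167 CPM in the 5 Mpo-high pairs, in the order given above. In the Gata1-high pairs it ranged from 0 to 15.4 CPM with a median of 0.698, so the classes did not overlap (log2 fold change 9.74 ± 0.912, SE, edgeR adjusted p = 2.97e-07). Ctsg, the cathepsin G gene (chromosome 14 from 56099881 to 56102574, minus strand), had 4373, 863, 1680, 267 and 2069 CPM against at most 47.6 CPM (9.21 ± 1.31, SE, edgeR adjusted p = 9.76e-05). Serpinb1a, an inhibitor of such proteases, had 458, 15.2, 826, 56.1 and 318 CPM against at most 1.90 CPM (10.97 ± 0.934, SE, edgeR adjusted p = 8.04e-08). Lysozyme, Lyz2, stood at 2924 CPM in untreated pair 9 and at 141 to 215 CPM in the other 4 Mpo-high pairs, against at most 35.5 CPM (edgeR adjusted p = 0.00208). Srgn, whose product serglycin packs granule proteins, overlapped between classes, at 87.7 to 1026 against 17.6 to 357 CPM (2.80 ± 0.563, SE, edgeR adjusted p = 0.00482).

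The elastase gene did not share this pattern, although it is the neighbour of Prtn3. Elane (chromosome 10 from 79886247 to 79888215, plus strand) begins 3072 bases after the end of Prtn3. It had 1758, 0.195, 632, 0 and 18.9 CPM in the 5 Mpo-high pairs, so 3 of them were above 10 CPM and 2 were below 1 CPM. It was left out by the expression filter, and with no filter its log2 fold change was 9.79 ± 1.39 (SE, edgeR adjusted p = 9.12e-05). Most late granule genes were not detected. Of 13 secondary granule and maturation genes, 9 had 0 counts in all 22 pairs, among them Ltf, Camp and Ngp, and 3 reached 10 CPM in an Mpo-high pair. Of these, Anxa1, the annexin A1 gene, was called higher, at 1098, 514, 153, 0.198 and 437 CPM against at most 2.85 CPM (10.59 ± 1.01, SE, edgeR adjusted p = 3.13e-07). It did not pass the filter when untreated pair 5, a Gata1-high pair, was left out. Mmp8 reached 252 CPM in untreated pair 9 and Lcn2 69.5 CPM in dexamethasone pair 10.

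Sequence just before the annotated start is shown for the 3 neighbouring or co-stored protease genes and for Klf1, because Prtn3 reached 10 CPM in all 10 Mpo-high cells, Ctsg in 9 and Elane in 4. The windows are the 250 bases before the RefSeq start on GRCm38.p6, cut where the GENCODE gene start falls inside them. Capitals mark, on either strand, the letters GAGGAA (the core of many ETS sites), TGTGGT (RUNX sites), CCNCNCCC (CACCC-type sites) and the GATA sites. The GATA sites searched were AGATAA itself, the form AGATAG with a different end, the form TGATAA with a different start and the form TGATAG with both. The Elane and Klf1 windows are thus cut to 185 and 196 bases, the Prtn3 window lies within the longer span that GENCODE gives that gene, and TTGCNNAA, a C/EBP core, was searched too and found in none of the 4 windows. The windows lie at chr10:79879417-79879666 (Prtn3, plus strand), chr10:79886062-79886246 (Elane, plus), chr14:56102575-56102824 (Ctsg, minus) and chr8:84901732-84901927 (Klf1, plus).
Prtn3: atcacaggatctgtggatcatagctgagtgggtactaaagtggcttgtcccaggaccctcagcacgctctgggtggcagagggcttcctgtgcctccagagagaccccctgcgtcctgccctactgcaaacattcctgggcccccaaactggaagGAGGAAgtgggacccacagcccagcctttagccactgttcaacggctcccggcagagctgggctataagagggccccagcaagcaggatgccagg
Elane: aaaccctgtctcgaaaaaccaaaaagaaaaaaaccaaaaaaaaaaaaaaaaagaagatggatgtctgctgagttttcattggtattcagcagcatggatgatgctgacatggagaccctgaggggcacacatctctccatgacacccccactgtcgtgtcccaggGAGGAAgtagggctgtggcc
Ctsg: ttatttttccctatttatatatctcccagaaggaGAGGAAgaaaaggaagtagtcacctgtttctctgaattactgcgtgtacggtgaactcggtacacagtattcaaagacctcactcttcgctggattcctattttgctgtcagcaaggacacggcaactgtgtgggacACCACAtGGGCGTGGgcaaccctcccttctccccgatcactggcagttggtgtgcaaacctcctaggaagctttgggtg
Klf1: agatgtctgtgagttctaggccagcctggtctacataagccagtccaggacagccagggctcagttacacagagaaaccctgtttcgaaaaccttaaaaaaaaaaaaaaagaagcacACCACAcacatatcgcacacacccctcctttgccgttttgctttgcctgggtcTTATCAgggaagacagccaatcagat
GAGGAA begins 95 bases before the start in Prtn3, 85 in Elane and 216 in Ctsg, and 23.3% of all 32851 windows of 250 bases hold it. The Klf1 window holds the GATA letters once, beginning 80 bases before the start, which 26.5% of windows do. TGTGGT is held by 14.0% of windows and occurs at 79 in Ctsg and 133 in Klf1, CCNCNCCC by 45.9% and occurs at 72 in Ctsg, and TTGCNNAA by 9.56%. These are matches of letters and no measure of binding.

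Genes of leukocyte surface and signalling formed the largest group of calls on the Mpo-high side. Of 26 listed genes 25 were tested, and 14 were called higher in the Mpo-high pairs and 0 lower, with a median log2 fold change of 4.41. Plac8, which encodes a small cysteine-rich protein of myeloid progenitors, had the smallest p of all genes, with 1034, 1697, 526, 342 and 529 CPM in the Mpo-high pairs against at most 3.80 CPM (10.78 ± 0.614, SE, edgeR adjusted p = 7.96e-11). The tetraspanin gene Cd53 had 850, 936, 347, 13.3 and 133 CPM against at most 1.28 CPM (10.81 ± 0.824, SE, edgeR adjusted p = 1.74e-08). Cd52, a surface glycoprotein gene, was even across the summed Mpo-high pairs, at 102 to 201 CPM, against at most 0.388 CPM (11.13 ± 0.978, SE, edgeR adjusted p = 9.91e-08). It was not even between sisters, whose mean absolute difference in Cd52 was 3.14 on the log2(CPM + 1) scale. Emb, which encodes embigin, a chaperone of lactate transporters, had 255 to 2330 CPM against at most 20.0 CPM (9.93 ± 1.11, SE). Lcp1, an actin-bundling protein gene of leukocytes, had 251 to 2426 CPM against 0.140 to 153 CPM (5.81 ± 1.09, SE). The call for Coro1a (845 to 1842 against 0 to 630 CPM) was kept in 7 of 22 fits that left out 1 pair each.

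The phagocyte oxidase, which makes superoxide, had 3 of 6 tested subunit genes called higher in the Mpo-high pairs and 0 lower. Ncf4, its p40 subunit, had 329, 11.9, 362, 101 and 112 CPM against at most 0.930 CPM (10.35 ± 1.08, SE, edgeR adjusted p = 1.72e-06). Ncf1, its p47 subunit, was at 25.2 to 114 CPM in 4 Mpo-high pairs and at 0 in dexamethasone pair 10 (9.19 ± 1.46, SE, edgeR adjusted p = 4.42e-04). It passed the filter in 11 of 22 fits that left out 1 pair each and was called in those 11. Rac2, the leukocyte GTPase of the complex, was at 611 to 899 CPM against 25.6 to 639 CPM (1.74 ± 0.441, SE), a call kept in 15 of 22 fits that left out 1 pair each. Fcer1g and Tyrobp, adaptor genes of activating receptors and the 2 called of 4 tested monocyte and dendritic cell genes, did not overlap between classes. Fcer1g had 297 to 588 CPM against at most 11.3 CPM (9.68 ± 1.14, SE), and Tyrobp 213 to 613 CPM against at most 26.8 CPM (7.57 ± 1.38, SE). Outside the lists, the 10 smallest p values on this side included Napsa, an aspartic protease gene (134 to 630 against at most 1.90 CPM), and Traf3ip3, a TRAF3-binding protein gene (32.2 to 372 against at most 0.465 CPM), at log2 fold changes of 10.89 ± 0.852 and 10.16 ± 0.959 (SE).

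Among transcription factors Spi1 was the 1 called myeloid factor of 6 tested, with all 6 at positive log2 fold changes. Spi1 (chromosome 2 from 91082390 to 91115756, plus strand) had 202, 273, 324, 307 and 577 CPM in the Mpo-high pairs. In the Gata1-high pairs it ranged from 0 to 90.3 CPM, with 7 of 17 pairs at 10 CPM or more, so the classes did not overlap (4.46 ± 1.23, SE, edgeR adjusted p = 0.0454). The call was kept in 5 of 22 fits that left out 1 pair each, with adjusted p up to 0.087. Of 16 tested erythroid factors besides Gata1, 2 were called higher in the Gata1-high class, beside 1.39% of all genes tested. In this list 0 were called lower and the median log2 fold change was -1.72. Klf1 (chromosome 8 from 84901928 to 84905291, plus strand) had 3.98, 1.56, 1.39, 1.39 and 62.3 CPM in the Mpo-high pairs against 201 to 2214 CPM, a median of 699 (-5.76 ± 0.951, SE, edgeR adjusted p = 6.65e-04). The highest Mpo-high value was dexamethasone pair 10. Mafk, a small Maf partner factor, held 2 counts over all 5 Mpo-high pairs, and its pooled CPM was 910 times higher in the Gata1-high pairs (95% counting interval 252 to 7520). That call was lost without any of untreated pairs 9 and 10 or dexamethasone pairs 7 and 10, with adjusted p up to 0.0718. Tal1, Gata2 and Zfpm1 were not called. Gata2 reached 10 CPM in untreated pair 9 and dexamethasone pairs 6 and 10, at 105, 66.0 and 75.6 CPM, against a Gata1-high range of 0 to 127 CPM. Cebpa, the C/EBP-alpha gene, was at 0, 4.86, 0, 0 and 47.2 CPM in the Mpo-high pairs and at 0 in the 17 others, and Gfi1 and Cebpe had 0 counts in all 22.

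**Figure D2:**
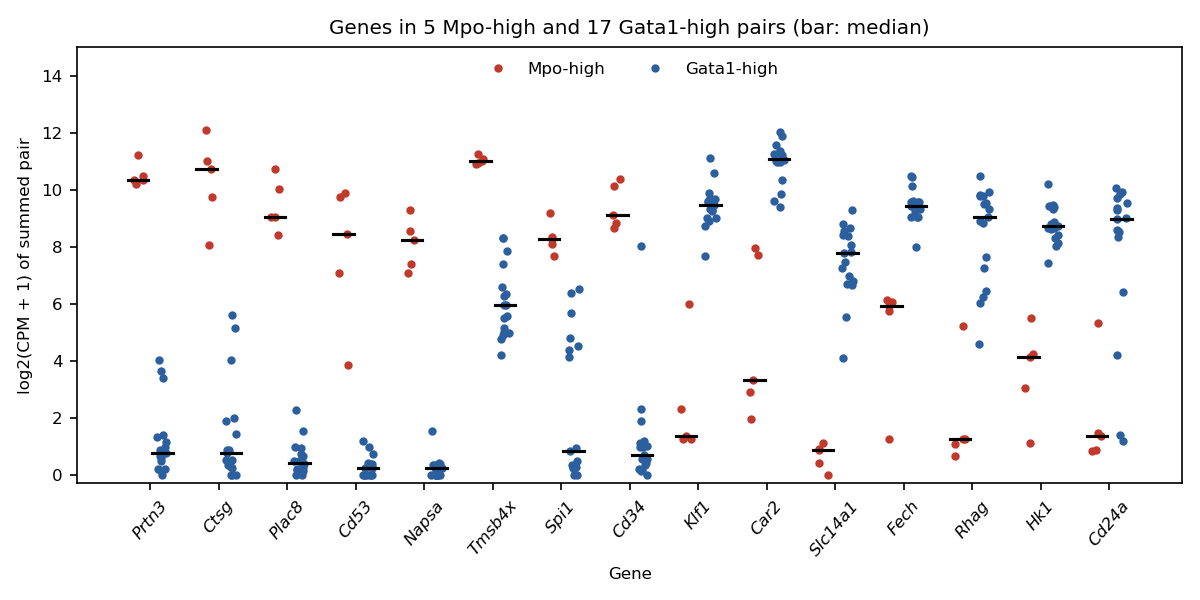
Levels of 15 genes (x axis) as log2(CPM + 1) of the summed counts of a pair (y axis), 1 point per pair and a bar at the median. Prtn3, Plac8 and Tmsb4x are higher in each Mpo-high pair than in any Gata1-high pair, Klf1, Car2, Slc14a1, Fech and Hk1 are lower, and Rhag and Cd24a overlap.

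Of 24 listed genes of early progenitors 13 were tested, 2 were called higher in the Mpo-high pairs, beside 1.85% of all genes tested, and 0 lower. Cd34, the sialomucin gene that marks multipotent and myeloid progenitors, had 558, 1314, 1108, 456 and 403 CPM in the Mpo-high pairs against a median of 0.640 and a highest value of 260 CPM in the Gata1-high pairs (8.15 ± 1.64, SE, edgeR adjusted p = 0.00486). It reached 10 CPM in all 10 Mpo-high cells and in 1 of 34 Gata1-high cells. Ikzf2, the Helios gene, was at 0.173 and 0 CPM in the untreated and at 129, 65.1 and 34.0 CPM in the dexamethasone Mpo-high pairs (6.21 ± 1.30, SE, edgeR adjusted p = 0.00697), and without untreated pair 9 the adjusted p was 0.0994. Kit, the stem cell factor receptor gene, overlapped fully, at 0.519 to 358 against 0.762 to 528 CPM (-0.08 ± 0.997, SE, edgeR adjusted p = 0.986). Cdk6, the G1 kinase gene, was the 1 called of 9 tested cyclins and CDK inhibitors, at 938 to 2092 against 293 to 1302 CPM (1.10 ± 0.270, SE), and was not called without untreated pairs 2, 3, 9 or 10, each left out alone (adjusted p up to 0.0968).

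On the Gata1-high side the red cell membrane and blood group genes held more calls than any other list. Of 22 listed genes 19 were tested, 8 were called higher in the Gata1-high pairs and 0 lower, and the median log2 fold change was -7.84, against -0.035 over all genes. For those near 0 in all Mpo-high pairs the filter set the direction, and their counts and adjusted p values are a description. Slc14a1, the urea transporter that carries the Kidd blood group, had 0.346, 0, 0.835, 1.19 and 0.865 CPM in the Mpo-high pairs against 16.0 to 624 CPM, a median of 221 (-8.12 ± 0.983, SE, edgeR adjusted p = 9.72e-06). Ermap, Add2, Sptb and Rhd, genes for an erythroblast surface protein, beta-adducin, beta-spectrin and the RhD protein, stayed at or below 1.90 CPM in each Mpo-high pair. Their Gata1-high medians were 241, 294, 81.6 and 195 CPM, and in each the lowest Gata1-high pairs reached into the Mpo-high range. Rhag, the Rh-associated glycoprotein gene, had 36.1 CPM in dexamethasone pair 10 and at most 1.39 CPM in the other 4 Mpo-high pairs against 22.9 to 1434 CPM (-6.12 ± 1.21, SE, edgeR adjusted p = 0.00397). Its level in that pair came from cell 2, at 6.08 log2(CPM + 1) against 1.501 in cell 1.

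Of the genes of heme synthesis, a pathway that myeloperoxidase also needs, 12 of 13 reached 10 CPM in at least 1 Mpo-high pair and 13 in a Gata1-high pair. Of these 13, all tested, 3 were called lower in the Mpo-high pairs and 0 higher, with 12 of 13 at negative log2 fold changes and a median of -3.06. Fech, ferrochelatase, had 68.5, 65.7, 1.39, 52.6 and 60.0 CPM against 256 to 1418 CPM (-3.64 ± 0.570, SE, edgeR adjusted p = 3.66e-04). Tmem14c, a mitochondrial porphyrinogen transporter gene, had 30.1 to 212 against 239 to 1135 CPM (-1.60 ± 0.376, SE). Neither gene overlapped between classes. Of 13 iron genes 2 were called lower in the Mpo-high pairs, beside 1.39% of all genes tested. Tfr2, the second transferrin receptor, had at most 1.38 CPM there against a Gata1-high median of 59.4 CPM, and Slc40a1, the iron exporter ferroportin, held 2 counts there against a median of 19.9 CPM. Both calls were lost when any 1 of the 5 Mpo-high pairs was left out, with adjusted p up to 0.074 and 0.0803. The 4 adult globin genes had negative log2 fold changes and none was called. Hba-a1, an alpha-globin gene, had 6.22, 0.583, 0.557, 8.53 and 121 CPM against 0.866 to 3105 CPM (-4.11 ± 1.64, SE, edgeR adjusted p = 0.160), and its reads may be shared with Hba-a2. Epor, the erythropoietin receptor gene, was also not called, at 29.7 CPM in dexamethasone pair 10 and at most 0.519 CPM in the other Mpo-high pairs against 0 to 494 CPM (-4.72 ± 1.39, SE, edgeR adjusted p = 0.0617).

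Of 13 tested erythroid cytosolic enzymes and related genes, 5 were called higher in the Gata1-high pairs, namely Car1, Car2, Pklr, Cited4 and Hemgn, and 1, Gpx1, higher in the Mpo-high pairs. Car2, carbonic anhydrase 2, had 6.57, 2.92, 245, 8.92 and 206 CPM in the Mpo-high pairs against 668 to 4159 CPM (-4.69 ± 0.859, SE, edgeR adjusted p = 0.00183). The high values were those of dexamethasone pairs 6 and 10. Hemgn, the hemogen gene, had at most 1.15 CPM against a median of 102 CPM (-7.32 ± 1.22, SE). The call for Cited4, a transcriptional co-regulator gene, was lost without untreated pairs 9 or 10, each left out alone (adjusted p up to 0.062). Gpx1, glutathione peroxidase 1, was at 2020 to 3609 against 843 to 1830 CPM, without overlap (1.17 ± 0.194, SE, edgeR adjusted p = 7.04e-04). In glycolysis 3 of 17 tested genes were called higher in the Mpo-high pairs and 1 lower, beside 1.85% and 1.39% of all genes tested. Hk1, hexokinase 1 (chromosome 10 from 62268855 to 62379908, minus strand), had 44.6, 17.7, 16.4, 1.19 and 7.21 CPM against 170 to 1163 CPM, a median of 424 (-4.56 ± 0.664, SE, edgeR adjusted p = 1.36e-04). The pyruvate kinase genes moved in opposite directions. Pklr, whose red cell form is the erythrocyte isozyme, had at most 0.397 CPM in the Mpo-high pairs against a median of 68.8 CPM (-9.34 ± 1.73, SE, edgeR adjusted p = 0.00197). Pkm, the isozyme gene of most other cells (chromosome 9 from 59656368 to 59679375, plus strand), had 1521, 2043, 2332, 901 and 1846 CPM against 145 to 1375 CPM (1.63 ± 0.405, SE, edgeR adjusted p = 0.0255). Aldoa and Pgam1, aldolase A and phosphoglycerate mutase 1, were at log2 fold changes of 0.73 ± 0.133 and 2.32 ± 0.514 (SE). The call for Pkm was lost without untreated pairs 2, 9, 10 or 11 or dexamethasone pair 6, each left out alone (adjusted p up to 0.0839).

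The 10 smallest p values on the Gata1-high side also held genes outside the erythroid lists. Fdft1, squalene synthase of cholesterol synthesis, had 2.94, 0.778, 1.39, 1.59 and 24.8 CPM in the Mpo-high pairs against 44.6 to 797 CPM (-5.50 ± 0.885, SE, edgeR adjusted p = 5.07e-04). St3gal6, a sialyltransferase gene, had at most 0.519 CPM against a median of 143 CPM (-8.84 ± 1.42, SE). Samd14, which encodes a sterile alpha motif protein, had at most 0.557 CPM against 1.35 to 482 CPM (-8.60 ± 1.44, SE). Bdh1, a ketone body dehydrogenase gene, had at most 0.577 CPM against a median of 55.0 CPM (-7.35 ± 1.19, SE). Asns, asparagine synthetase, was the 1 called of 15 tested ATF4 target and amino acid genes, beside 1.39% of all genes tested. Asns was at 3.11 to 314 against 255 to 2125 CPM, and was not called without dexamethasone pairs 6 or 10, each left out alone (adjusted p up to 0.0723). Mllt3, a chromatin reader gene listed among stem cell genes, held 1 count over the Mpo-high pairs against a median of 62.6 CPM, a pooled ratio of 1650 (95% counting interval 296 to 65111.7). St3gal6, Samd14, Bdh1 and Mllt3 were near 0 in all Mpo-high pairs. The expression filter thus set their direction, and their fold changes and ratios are a description.

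**Figure D3:**
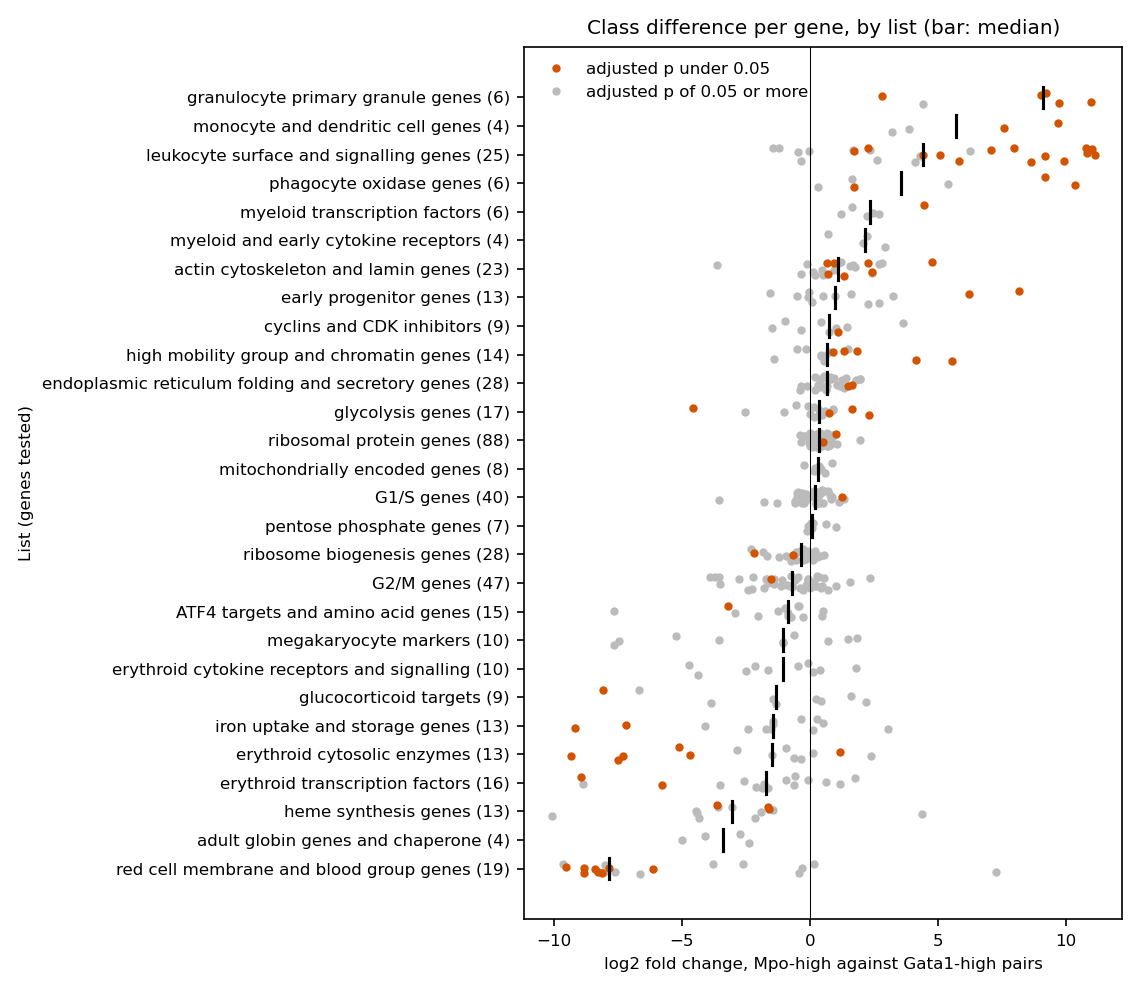
Log2 fold change of each tested gene between Mpo-high and Gata1-high pairs (x axis, positive when higher in Mpo-high pairs), for the lists with at least 4 tested genes (y axis, number tested in brackets), coloured by whether the adjusted p was under 0.05, with a bar at the list's median. The medians run from -7.84 for red cell membrane and blood group genes to 9.11 for primary granule genes.

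Of 23 actin cytoskeleton and lamin genes 7 were called higher in the Mpo-high pairs, beside 1.85% of all genes tested, and 0 lower. The median log2 fold change of the 23 was 1.11. Tmsb4x, the thymosin beta 4 gene, whose product binds monomeric actin, was even in the Mpo-high pairs, at 2414, 1920, 1972, 2166 and 2055 CPM, against 17.6 to 315 CPM (4.78 ± 0.511, SE, edgeR adjusted p = 2.15e-06). Arhgdib, a leukocyte inhibitor gene of small GTPases, was at 1989 to 4166 against 291 to 1442 CPM, without overlap (2.25 ± 0.260, SE, edgeR adjusted p = 5.84e-06). Actb, beta-actin, was at 15773.2 and 12232.3 CPM in the untreated and 6608 to 7499 CPM in the dexamethasone Mpo-high pairs, against 5286 to 9908 CPM. Its log2 fold change of 0.68 ± 0.188 (SE) was called in 6 of 22 fits that left out 1 pair each and was -0.02 in plate columns 1 to 4 alone. Of 14 tested high mobility group and chromatin genes 5 were called higher in the Mpo-high pairs, beside 1.85% of all genes tested, and 0 lower. The 5 were Hmgb1, Hmgn2, Hmga2, H2afy and H3f3a, and the H3f3a call was kept in 5 of 22 fits that left out 1 pair each. H2afy, the macroH2A1 histone gene, had 1086, 1127, 443, 2349 and 1060 CPM against 1.35 to 190 CPM (4.13 ± 0.550, SE, edgeR adjusted p = 4.02e-05). Hmga2, an architectural factor gene of fetal progenitors, was at 11.2 to 26.3 CPM in 4 Mpo-high pairs and at 314 CPM in dexamethasone pair 7, against at most 8.55 CPM, and was not called without dexamethasone pair 7 or untreated pair 10 (adjusted p up to 0.116).

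For the groups of general cell functions, the shares called over all genes were 1.85% higher and 1.39% lower in the Mpo-high pairs. Of 28 endoplasmic reticulum folding and secretory genes 25 had positive log2 fold changes, and 2, Calr and Spcs2, were called higher in the Mpo-high pairs. Calr, calreticulin, was at 665 to 1034 against 67.4 to 886 CPM (1.65 ± 0.344, SE, edgeR adjusted p = 0.00656). Of 88 ribosomal protein genes tested, 78 had positive log2 fold changes with a median of 0.36, and 2, Rps27 and Rpl4, were called higher, in 13 and 12 of 22 fits that left out 1 pair each. Of 28 ribosome biogenesis genes 22 had negative log2 fold changes with a median of -0.37, and 2, Ncl and Polr1b, were called lower in the Mpo-high pairs, Polr1b in 7 of the 22 fits. Ncl, nucleolin, was at 999 to 1836 against 1828 to 3371 CPM (-0.67 ± 0.152, SE, edgeR adjusted p = 0.0129). Of 40 G1/S genes 1, Rpa2, was called higher and of 47 G2/M genes 1, Cbx5, was called lower in the Mpo-high pairs, with medians of 0.20 and -0.71, and Rpa2 kept its call in 15 of 22 such fits. The median of the G1/S genes was -0.42 by limma on the mean log2 values of the 2 cells. Shifts of this size stand beside the larger share that the 100 most abundant genes took in the Mpo-high pairs, whose part in them was not tested. Klf9, a glucocorticoid-inducible factor gene, was the 1 called of 9 tested glucocorticoid targets. It held 2 counts over the Mpo-high pairs against a Gata1-high median of 25.9 CPM, and the call was kept in 11 of 22 fits that left out 1 pair each.

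The antigens used to prepare the founders were read in both classes. Fcgr3, which encodes the CD16 antigen of the depleted CD16/32, had 785, 0, 339, 33.1 and 398 CPM in the Mpo-high pairs against at most 2.85 CPM in the Gata1-high pairs (10.42 ± 1.12, SE, edgeR adjusted p = 2.15e-06). It reached 10 CPM in 7 of 10 Mpo-high cells and in 0 of 34 Gata1-high cells. Without untreated pair 5, a Gata1-high pair, Fcgr3 did not pass the expression filter. Among 8 genes of the depletion antigens, 3 had 0 counts in all 22 pairs. Ptprc and Itga2b of this list were tested and not called, at log2 fold changes of 6.27 and -1.04. Of the sort antigens, Cd24a was lower in the Mpo-high pairs, at 0.778 to 38.8 against 1.30 to 1054 CPM (-5.83 ± 1.45, SE, edgeR adjusted p = 0.0254), and was not called when untreated pairs 9 or 10 or dexamethasone pairs 6 or 7 were left out (adjusted p up to 0.0735). Tfrc, the transferrin receptor gene, was not called, at 160 and 407 CPM in the untreated and 31.2, 0.595 and 0.721 CPM in the dexamethasone Mpo-high pairs, against 46.8 to 702 CPM (-1.73 ± 0.934, SE, edgeR adjusted p = 0.343).

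Many markers of other cell types were at 0. All 7 eosinophil markers, 7 of 12 mast cell and basophil, 10 of 18 lymphoid, 6 of 12 macrophage, 7 of 13 hepatocyte and 4 of 9 endothelial markers had 0 counts in all 22 pairs. The summed level of the hepatocyte markers was 34.3 to 79.9 CPM in the Mpo-high and 0 to 90.5 CPM in the Gata1-high pairs, that of the macrophage markers 0 to 60.3 and 0 to 280 CPM, that of the lymphoid markers 5.35 to 512 and 0 to 45.1 CPM, that of the endothelial markers 0.346 to 211 and 20.3 to 377 CPM, that of the stem cell markers 0 to 303 and 0.572 to 433 CPM, and that of the mast cell and basophil markers 0.195 to 1886 and 0 to 110 CPM. Of 10 megakaryocyte markers tested, 0 were called. Single members stood out. Trf, which encodes transferrin and was listed as a hepatocyte marker, was at 46.2, 35.2, 79.6, 21.02 and 70.1 CPM in the Mpo-high pairs and had 0 counts in the 17 Gata1-high pairs, so it was at least 1600-fold higher by a floor of 3 counts over the class (edgeR adjusted p = 0.00397). Hdc, the 1 tested mast cell and basophil marker, was called higher in the Mpo-high pairs (5.80 ± 1.59, SE, edgeR adjusted p = 0.0454), in 7 of 22 fits that left out 1 pair each. The hepatocyte genes Alb and Ttr were not above 5 CPM in any pair. Cd79b, a B cell receptor subunit gene, was at 97.7, 95.5, 23.9, 5.35 and 129 CPM against at most 1.90 CPM (10.06 ± 1.32, SE, edgeR adjusted p = 3.30e-05), while its partner Cd79a and the B cell factor gene Pax5 were below 5 CPM throughout. Trf and Cd79b were near 0 in the Gata1-high pairs, so the expression filter set their direction and their adjusted p values are a description.

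The 10 Mpo-high cells were not alike. Elane and Irf8, the gene of a factor known for the monocyte and dendritic cell branch, did not both reach 10 CPM in any of them. In the order given above, Elane in cells 1 and 2 was 11.98 and 1.16, 0.00 and 0.40, 10.31 and 8.14, 0.00 and 0.00, and 0.69 and 5.18 log2(CPM + 1). Irf8 in the same cells was 0.48 and 8.07, 7.30 and 9.95, 1.75 and 1.20, 9.01 and 8.42, and 0.38 and 0.63. Taking 10 CPM as the level, 4 cells had Elane, 5 had Irf8, 0 had both and 1 had neither. These genes were picked after their values were seen, the 10 cells come from 5 founders, and no test was made. Of the 34 Gata1-high cells 1 reached 10 CPM of Elane and 0 of Irf8.

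Other genes split along the same cells. Hdc, which encodes histidine decarboxylase, the enzyme that makes histamine, reached 10 CPM in the same 4 cells as Elane, at 10.34 in untreated pair 9 cell 1, 9.15 and 10.30 in dexamethasone pair 6 and 6.88 in dexamethasone pair 10 cell 2. Ms4a3, a membrane protein gene of granulocyte-monocyte progenitors, was above 10 CPM in 3 of these 4 cells, as was Cpa3, the mast cell carboxypeptidase A3 gene, and both were above it in 0 of the 5 cells with Irf8. Csf1r, the receptor gene for macrophage colony-stimulating factor, reached 10 CPM in 4 of the 5 Irf8 cells, at 8.98 to 9.80, and in 1 of the 4 Elane cells, at 3.99. Flt3, the receptor gene known from lymphoid and dendritic progenitors, crossed this line, with 2 Elane cells, 3 Irf8 cells and the remaining cell. Prtn3 did not split, and ranged from 9.18 to 11.76 in the 10 cells, and Spi1 ranged from 7.08 to 9.58.

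Sisters could differ within a founder. In untreated pair 9, cell 1 held Elane, Ms4a3, Prss57 and Hdc at 11.98, 10.54, 9.12 and 10.34 log2(CPM + 1) and Irf8, Csf1r and Lyz2 at 0.48, 3.02 and 0.84. Cell 2 held the first 4 at 1.16, 0.00, 0.39 and 0.39 and the last 3 at 8.07, 9.79 and 12.34. Over the 10 cells Lyz2 did not split this way, and reached 10 CPM in 3 of the 4 Elane cells and 4 of the 5 Irf8 cells. Other granule genes went both ways in untreated pair 9. Ctsg and Cst7 were at 13.06 and 9.69 in cell 1 against 10.16 and 0.69 in cell 2. Mmp8 and Serpinb1a were at 0.00 and 7.73 in cell 1 against 8.81 and 9.35 in cell 2. The other sisters matched in Elane and Irf8 at the 10 CPM level except in dexamethasone pair 10, where cell 2 had Elane at 5.18 and cell 1 at 0.69. For Mpo, which the rule held at 12 or more in both sisters, the mean absolute difference was 0.802 and is a description only. Over the 5 Mpo-high pairs this mean difference between sisters was 0.605 for Prtn3 on the log2(CPM + 1) scale. It was 3.58 for Elane, 2.33 for Irf8 and 4.09 for Csf1r. Untreated pair 9 set much of this, and without it the mean was 1.76 for Elane and 1.01 for Irf8, against 3.43 for Csf1r and 0.469 for Prtn3. Without dexamethasone pair 10 the mean for Prtn3 was 0.343.

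**Figure D4:**
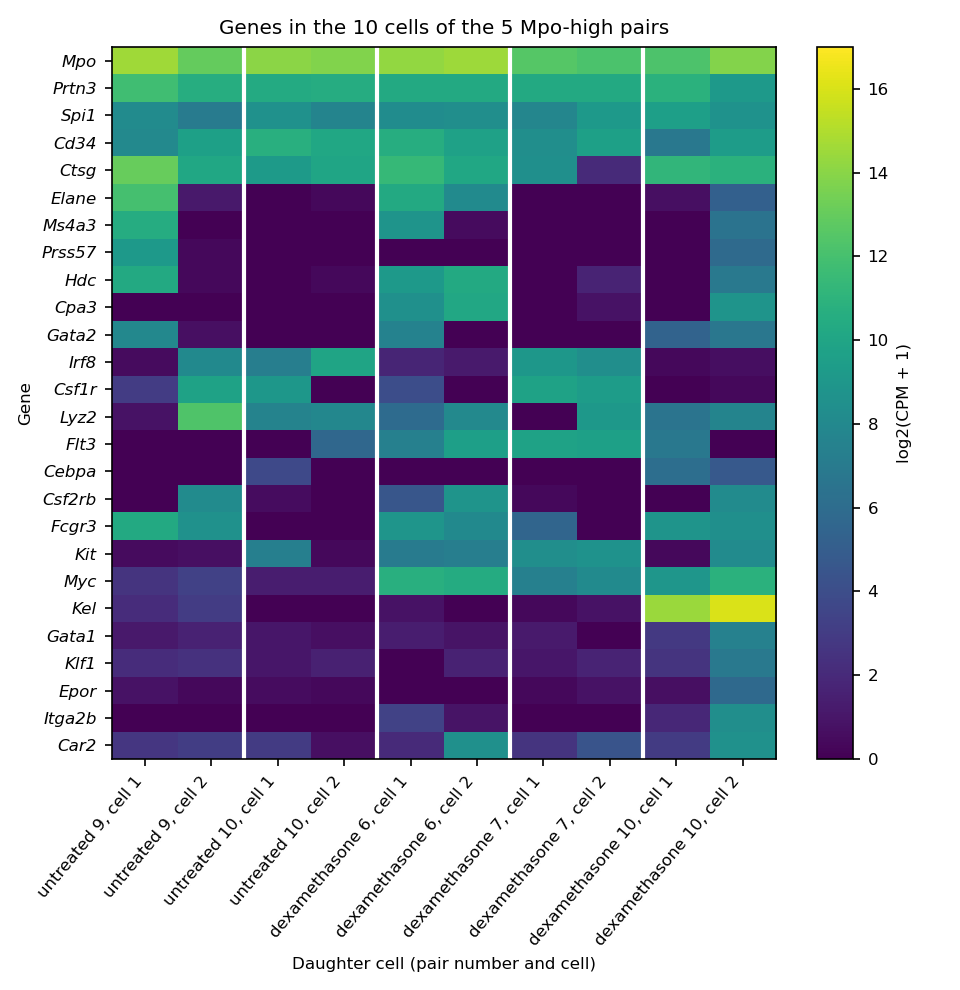
Level of 26 genes (y axis) in log2(CPM + 1), as colour, in each of the 10 Mpo-high cells (x axis), with white lines between pairs. Elane at 5.18 or more and Irf8 at 7.30 or more fall in different cells, and Kel is at 14.43 and 16.02 in dexamethasone pair 10.

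Dexamethasone pair 10 stood apart among the Mpo-high pairs. Its cell 2 held Gata1 at 7.46, Klf1 at 6.84, Epor at 5.83, Itga2b, the CD41 gene, at 8.38 and Car2 at 8.59 log2(CPM + 1) beside Mpo at 13.84 and Spi1 at 8.69. In its cell 1 the first 5 were at 2.83, 2.56, 0.69, 1.90 and 2.95. Cell 1 held Mcpt8, a basophil protease gene, at 9.08 and Hba-x, the embryonic zeta-globin gene, at 7.27, and both were at 0.00 in cell 2 and in the 8 cells of the other Mpo-high pairs. Kel, the Kell blood group gene (chromosome 6 from 41686330 to 41704339, minus strand), took 2.20% of the counts of cell 1 and 6.65% of those of cell 2. The pair's Kel level of 45504.2 CPM stood against at most 5.53 CPM in the other 4 Mpo-high pairs and 5.09 to 397 CPM in the Gata1-high pairs. Kel was not called (log2 fold change 7.28 ± 2.06, SE, edgeR adjusted p = 0.0522), and without dexamethasone pair 10 it was called in the other direction, at -6.08 (edgeR adjusted p = 0.0144). Cell 1 of dexamethasone pair 12, from the same plate column 7, held 59, 2 and 1 counts of Kel, Mcpt8 and Hba-x among its 210383, and whether these libraries share reads was not tested. Without dexamethasone pairs 9 and 10 the calls were 154 higher in Mpo-high and 201 higher in Gata1-high pairs.

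Finally, the class difference was compared between treatments. The interaction of class and treatment was called for 103 of 9143 genes, 1.13% of those tested (1444 at an unadjusted p under 0.05), in edgeR's quasi-likelihood test. Of the 103 genes, 86 were under 10 CPM in both untreated Mpo-high pairs and 5 were under it in the 3 dexamethasone Mpo-high pairs. Myc, the growth-promoting factor gene (chromosome 15 from 61985391 to 61990374, plus strand), was at 6.91 and 1.56 CPM in untreated pairs 9 and 10 and at 1531, 197 and 1193 CPM in dexamethasone pairs 6, 7 and 10. The Gata1-high pairs ranged from 138 to 1697 CPM untreated and from 263 to 1280 CPM with dexamethasone. The class difference was 7.09 ± 1.40 (SE) log2 units higher with dexamethasone (edgeR adjusted p = 0.0121), and all 4 untreated Mpo-high cells lay at or below 3.26 against 7.40 or more in the 6 dexamethasone ones. Car2 differed in the same direction by 4.72 ± 1.09 (SE, edgeR adjusted p = 0.0324) and Actb in the other by -1.31 ± 0.282 (SE, edgeR adjusted p = 0.0211). Both untreated Mpo-high pairs sat in plate column 5 and the dexamethasone ones in columns 4 and 7, so treatment and plate column cannot be told apart here. Untreated pair 11, a Gata1-high pair in column 5, had 308 CPM of Myc, and an effect of plate column within the Mpo-high class was not tested.

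**Figure D5:**
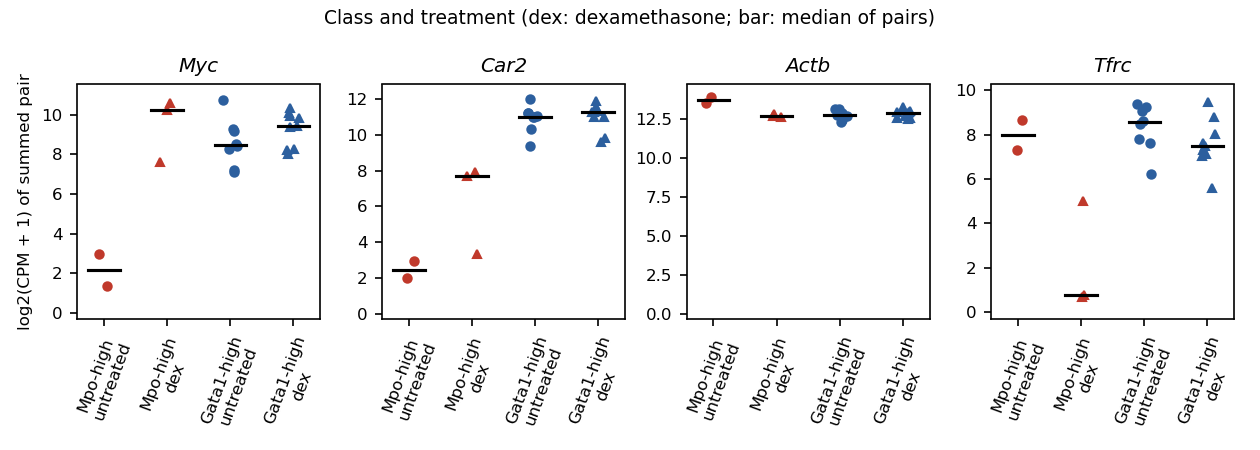
Levels of Myc, Car2, Actb and Tfrc as log2(CPM + 1) of the summed counts of a pair (y axis) by class and treatment (x axis), 1 point per pair and a bar at the median. The 2 untreated Mpo-high pairs lie below all other pairs for Myc, at 6.91 and 1.56 CPM, and above them for Actb, at 15773.2 and 12232.3 CPM.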

How the data were processed

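The authors deposited 2 tables of raw read counts per gene, 1 per treatment, in whole numbers and not normalized. STAR 2.4, featureCounts and the build GRCm38 are named in the submitters' processing notes. The sources used here do not state how strand and multiply mapped reads were handled. Therefore near-identical genes (Hba-a1 and Hba-a2) and overlapping genes may share reads. Each table held 49466 genes, columns were matched to the 52 samples by name, and no library repeated another. No molecular identifiers are mentioned, so counting intervals and floors cover counting error only.

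Counts of the 2 cells of a pair were summed, since the pair (the founder) is the replicate. EdgeR 4.0.16 in R 4.3.3 fitted treatment and class with TMM scaling and filterByExpr on the class (minimum count 10, minimum total 15), with Benjamini-Hochberg adjusted p under 0.05. An SE is the log2 fold change divided by the square root of F. Mpo and Gata1 stayed in the fit and out of the counts. Pair sums held 1053168 to 10231954 counts. Single values used exact permutation tests and Fisher's exact test (scipy 1.17.1). A gene at 0 in a class was set to 3 counts over the class, and 1 to 3 counts got a 95% Poisson interval. Locations came from GENCODE M21 (GRCm38, all 686 genes shown were found) and promoter sequence from RefSeq (GRCm38.p6). Alternatives were DESeq2 1.42.0, limma 3.58.1, other scalings, filters, covariates, class limits and subsets of pairs. The classes, the 39 gene lists and the tests were chosen with earlier results of these data known. Named genes were the 10 with the smallest p in each direction (predicted and pseudogene names left out), up to 4 per list with the smallest p, 16 always named, and others said to be picked after their values were seen, among them Irf8, Csf1r, Flt3, Ms4a3, Prss57, Cpa3, Hdc, Mcpt8, Hba-x, Kel, Mmp8 and Lcn2. Some genes of the lists are not reported by name here. The labels' pair numbers count founders within a treatment and pair no samples across the classes.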

Additional observations from a re-analysis of the deposited data

Results flagged for a closer look

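Among the 95 values looked at in the 5 Mpo-high pairs, 17 had a highest or lowest pair set far from the other 4 relative to the whole range on the log2(CPM + 1) scale. Chance flags about 1 in 20 groups of independent, normally spread values, which these are not: 8 of the 17 come from dexamethasone pair 10, and Mllt3 rests on 1 count. Dexamethasone pair 10 was the high pair for Klf1 (62.3 CPM), Cd24a (38.8), Epor (29.7), Rhag (36.1), Cited4 (19.5), Kel (45504.2), Hba-x (72.4) and Gata1 (95.5 CPM), the last of which helped to set the classes. Untreated pair 9 was the high pair for Prtn3 (2398 CPM) and Lyz2 (2924 CPM). Untreated pair 10 was the low pair for Srgn (87.7 CPM) and Cst7 (0.195 CPM), the gene of the protease inhibitor cystatin F. Dexamethasone pair 7 was the low pair for Anxa1 (0.198 CPM) and Pgam1 (51.4 CPM) and the high pair for Hmga2 (314 CPM). Dexamethasone pair 6 was the low pair for Fech (1.39 CPM), and for Mllt3 it held 0.278 CPM where the other 4 pairs held 0.

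The class difference was not the same in untreated and dexamethasone pairs for 3 of the genes named, by the interaction test in edgeR, where treatment and plate column cannot be told apart. It differed by 7.09 log2 units for Myc, 4.72 for Car2 and -1.31 for Actb (dexamethasone minus untreated).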

How the results depend on the processing

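The counts of 169 and 127 genes higher in Mpo-high and Gata1-high pairs changed by over 1.5 times in several settings, and the cause was not tested beyond the smaller number of pairs or cells in some. DESeq2 called 740 and 1006 genes, including 292 of the edgeR calls, and its size factors within edgeR kept 288. Without a filter 524 genes were higher in Mpo-high pairs, and limma on mean log2 values called 717 higher in Gata1-high pairs, with a median over all genes of -0.739. From cell 1 alone 92 were higher in Mpo-high pairs, and from cell 2 alone 48 and 30. Untreated pairs alone gave 350 higher in Gata1-high pairs and dexamethasone pairs alone 53 and 17. Gata1 of at least 8, or Mpo under 6, in the Gata1-high cells gave 105 and 109 higher in Mpo-high pairs. Chosen after seeing the data, plate columns 1 to 4 gave 79 and 212, columns 5 to 7 gave 11 and 2, and leaving out dexamethasone pairs 9 and 10 gave 201 higher in Gata1-high pairs. Leaving out 1 pair each gave 118 to 206 and 84 to 199 genes, the latter without untreated pair 9 and without dexamethasone pair 10. The class by treatment interaction then gave 106 to 161 genes, against 103, with 155 without untreated pair 9 and 161 without dexamethasone pair 10. The median over all genes, -0.035, moved to -0.251 without a filter, -0.171 from cell 1, -0.621 in untreated pairs and -0.291 in plate columns 1 to 4, and it stayed within 0.1 of its value in the other settings run, limma (above) aside. The library total difference ranged from -0.114 to 0.123 log2 units, genes detected from -1079 to -435.1 and the mitochondrial share from 0.114 to 0.745 points. With the set of plate columns as a covariate 139 and 112 genes were called, including 218 of the 296. Of the 70 called genes named, 69 kept their sign in all alternatives and 52 their call in every fit without 1 pair that tested them. Genes near 0 in 1 class had their sign set by the filter, and all alternatives drew on the same selected pairs. The kept signs are therefore a description. Of the 70, 61 were called with plate columns as covariate, 42 and 30 from cells 1 and 2 alone, 45 in untreated and 20 in dexamethasone pairs alone, and 36 and 6 in plate columns 1 to 4 and 5 to 7 alone. The exception in sign was Actb, at -0.020 in plate columns 1 to 4. The other changes of sign were in genes not called. Kit, at -0.08, was 0.088 without a treatment term, 0.66 in cell 2, 0.74 in dexamethasone pairs, 0.01 (0.00757) with Gata1 of at least 8, 0.32 and 0.77 in plate columns 1 to 4 and 5 to 7, and -0.65 to 0.36 with 1 pair left out. Kel, at 7.28, was -1.01 by limma, -5.52 in untreated pairs, -7.11 in columns 1 to 4, -6.01 without dexamethasone pairs 9 and 10, and -6.08 to 7.80 with 1 pair left out. Myc, at -0.50, was 0.064 without a treatment term, 0.59 in dexamethasone pairs, 0.65 in columns 1 to 4 and -1.19 to 0.015 with 1 pair left out. Itga2b, at -1.04, was 0.99 in cell 2, 0.06 (0.0586) in dexamethasone pairs, 0.06 (0.0572) with Gata1 of at least 8 and 4.55 in columns 5 to 7. With 5 Mpo-high pairs, a gene missing in 1 of them reached the test only through a Gata1-high pair. No paired analysis was possible because the pair numbers only count founders within a treatment, and the Mpo-high and Gata1-high pairs are different founders.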
